A study of Mus musculus with 18 samples.

Results

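Cell cycle and mitosis genes were followed in the distal colon of mice without interleukin-10 and of wild-type mice. The set holds 40 genes chosen by symbol, from what is known of when their products act in the division cycle, with no threshold on measured values. The choice was made with earlier results of these data known. All 40 were found among the 16321 genes of the count table, and all 40 passed the filter on low counts, as did 16300 genes in all. They comprise 17 genes of S phase (Ccne1, Ccne2, E2f1, Cdc6, Cdt1, Cdc45, Gins2, Mcm2 to Mcm7, Pcna, Rrm1, Rrm2 and Tyms), 22 of mitosis (Mki67, Top2a, Foxm1, Cdk1, Ccnb1, Ccnb2, Cdc20, Ube2c, Plk1, Aurka, Aurkb, Birc5, Bub1, Bub1b, Tpx2, Kif11, Kif20a, Kif23, Kpna2, Cenpa, Cenpe and Cenpf), and Ccna2, whose cyclin acts from S phase into G2.

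The 18 mice gave 1 library each, of polyadenylated RNA from a piece of distal colon, in 6 groups of 3. The first was BALB/c wild type aged 6 weeks, and the other 5 were Il10KO aged 6, 8, 10, 12 and 14 weeks, each group of different mice. Mice lacking interleukin-10, a cytokine that restrains intestinal inflammation, develop colitis spontaneously. The Il10KO allele, the strain it was bred on and the microbiota are not given in the sources used here. No wild-type mice older than 6 weeks were used, so that from week 8 on the mice's age and the course of colitis cannot be told apart. All 3 wild-type mice came from cage G and none of the Il10KO mice did, so cage and genotype cannot be told apart either. Il10 itself was absent from the gene table: summed over its transcripts it had an estimated count of 0 in all 15 Il10KO libraries and of 0 to 3 in the wild type, too low in the wild type to check the labels.

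Libraries held between 26495521 and 35497101 counts. The RNA integrity number (RIN, a score of RNA quality) was between 8.4 and 9.3 in 16 libraries, but 6.5 in replicate 2 and 5.8 in replicate 3 of week 14. Faecal lipocalin, a protein marker of gut inflammation, ranged from 2.27 to 4289 ng/g in the Il10KO mice. The biological coefficient of variation over all genes was 0.394. Comparisons of groups come from 1 edgeR fit of all 6 groups, in which each gene's spread is shared by the groups, unless another fit is named. Below, a gene rose or fell only where edgeR's quasi-likelihood test gave a Benjamini-Hochberg adjusted p under 0.05 over all tested genes. Levels of 1 gene across libraries are in CPM, counts scaled to the size of the library, and levels of different genes are compared in TPM, which are scaled by transcript length too. Differences are log2 fold changes ± SE, and SDs are over the 3 mice of a group.

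A dividing cell copies its DNA in S phase and separates the copies in mitosis. Entry into S phase is driven by E2F factors, which are held back by the retinoblastoma protein until cyclins and their kinases inactivate it. Their targets include cyclin E (Ccne1, Ccne2), the proteins that load and start the replicative helicase (Cdc6, Cdt1, Mcm2 to Mcm7, Cdc45, Gins2), the sliding clamp Pcna, and the enzymes that make deoxynucleotides (Rrm1, Rrm2, Tyms). Mitotic genes are repressed by the DREAM complex in resting cells and switched on later, in G2, by MYBL2 and FOXM1. In the healthy colon, division is restricted to the lower part of the crypts. In inflamed colon, regenerating crypts, germinal centres of lymphoid follicles and activated lymphocytes also divide.

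The 2 waves are tied to different promoter elements: E2F sites for the S phase genes, and the CHR element (cell cycle genes homology region), often beside CCAAT boxes, for the mitosis genes. The members' promoters are shown for this reason. RefSeq windows, from 250 bases before to 50 bases after the annotated start, were given for 32 of the 40 members (14 of S phase and 18 of mitosis). They were searched on both strands for TTTGAA (CHR), CCAAT, and the E2F-type strings TTCCCGC or TTCGCGC or TTGGCGC or TTGCCGC. The letters TTTGAA were present in 14 of the 18 mitosis windows (77.8%), in 2 of the 14 S phase windows (14.3%, Cdc45 and Mcm2), and in 18.1% of the windows of 27025 genes. An E2F-type string was present in 3 of 18 mitosis windows (16.7%, Ccnb1, Cdk1 and Mki67), in 8 of 14 S phase windows (57.1%), and in 9.7% of all. CCAAT was present in 94.4% of mitosis windows, 64.3% of S phase windows and 37.9% of all. Median GC content was close in both classes, 57.85% for mitosis and 57.5% for S phase. A match describes the letters only and shows no binding.

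The promoters of 6 members follow, on build GRCm38.p6, 5′ to 3′ on the gene's strand, from 250 bases before to 30 bases after the start, with matches to the searched strings (either strand) in capitals. Cdk1, Ube2c and Cenpa are mitosis members with CHR and CCAAT letters, Birc5 is a mitosis member with none of the searched letters, and Mcm5 and Mcm6 are S phase members with E2F-type strings. Where matches overlap they form 1 run of capitals, as in TTCGCGCCAA of Mcm5, TTGGCGCGAA of Mcm6 and CCAATTGG of Ube2c.
Cdk1, chr10:69352883-69353162, minus strand: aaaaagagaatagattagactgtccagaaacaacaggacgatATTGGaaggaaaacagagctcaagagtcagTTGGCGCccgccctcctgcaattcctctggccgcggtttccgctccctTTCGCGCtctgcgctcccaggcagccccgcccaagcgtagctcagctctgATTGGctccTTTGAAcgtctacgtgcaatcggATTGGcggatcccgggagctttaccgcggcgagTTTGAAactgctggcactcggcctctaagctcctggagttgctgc
Ube2c, chr2:164769679-164769958, plus strand: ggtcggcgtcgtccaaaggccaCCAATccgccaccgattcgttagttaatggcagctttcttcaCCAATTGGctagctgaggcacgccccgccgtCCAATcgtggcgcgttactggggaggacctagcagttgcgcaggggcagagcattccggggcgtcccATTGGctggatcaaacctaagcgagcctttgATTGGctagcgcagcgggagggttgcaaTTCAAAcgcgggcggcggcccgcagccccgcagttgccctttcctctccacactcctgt
Cenpa, chr5:30666636-30666915, plus strand: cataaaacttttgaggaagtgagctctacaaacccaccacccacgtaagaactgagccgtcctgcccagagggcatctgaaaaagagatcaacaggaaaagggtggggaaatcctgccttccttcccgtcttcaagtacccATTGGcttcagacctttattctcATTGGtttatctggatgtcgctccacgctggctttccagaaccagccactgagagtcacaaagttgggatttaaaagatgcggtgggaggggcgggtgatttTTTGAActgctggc
Birc5, chr11:117848987-117849266, plus strand: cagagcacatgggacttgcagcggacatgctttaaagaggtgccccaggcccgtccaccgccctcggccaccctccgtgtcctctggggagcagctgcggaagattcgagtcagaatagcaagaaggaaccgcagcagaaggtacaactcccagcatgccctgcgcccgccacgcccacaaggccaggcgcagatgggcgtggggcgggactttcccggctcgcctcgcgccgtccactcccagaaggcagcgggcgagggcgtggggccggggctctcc
Mcm5, chr8:75109259-75109538, plus strand: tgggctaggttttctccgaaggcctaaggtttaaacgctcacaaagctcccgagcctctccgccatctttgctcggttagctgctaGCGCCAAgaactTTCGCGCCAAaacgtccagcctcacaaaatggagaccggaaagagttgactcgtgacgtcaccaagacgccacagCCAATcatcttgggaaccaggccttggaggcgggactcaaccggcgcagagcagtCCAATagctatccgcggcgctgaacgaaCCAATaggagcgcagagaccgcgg
Mcm6, chr1:128359676-128359955, minus strand: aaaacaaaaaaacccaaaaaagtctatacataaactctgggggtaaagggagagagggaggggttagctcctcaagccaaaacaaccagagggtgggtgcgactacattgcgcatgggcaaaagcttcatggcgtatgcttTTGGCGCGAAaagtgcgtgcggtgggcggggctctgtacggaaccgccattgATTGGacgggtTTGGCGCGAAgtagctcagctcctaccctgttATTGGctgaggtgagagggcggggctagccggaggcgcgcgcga

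In the wild-type colon the members spanned a wide range of levels. Pcna, the sliding clamp, had the highest TPM at 91.0 ± 8.84 (SD, n = 3). Ube2c, which marks mitotic cyclins for destruction, followed at 42.2 ± 5.76 TPM, then Cdk1, the mitotic kinase, at 35.4 ± 2.45 TPM and Tyms, thymidylate synthase, at 34.3 ± 2.30 TPM. Cdk1 and Tyms did not differ beyond their spread. Mki67, which encodes the proliferation marker Ki-67, stood at 9.62 ± 1.80 TPM. At the low end were Cenpe, a kinetochore motor, at 2.22 ± 0.668 TPM, Ccne1 at 2.19 ± 0.139 TPM, Cenpf at 1.47 ± 0.306 TPM and Kpna2 at 1.10 ± 0.274 TPM. Cenpe overlapped Ccne1 and Cenpf, and Cenpf overlapped Kpna2.

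In CPM, all members but Cdt1 had their highest mean level after week 6. These are orders of means, without regard to the spread. Mean CPM was highest at week 10 for 21 of the 40 members (12 of S phase, 8 of mitosis and Ccna2). It was highest at week 8 for 9 members, all of mitosis: Mki67, Foxm1, Plk1, Bub1b, Tpx2, Kif20a, Kif23, Cenpe and Cenpf. For another 9 members it was highest at week 14, and for Cdt1 in Il10KO at week 6. No member had its highest mean in the wild type or at week 12. The lowest mean was in the wild type for 22 members and at week 14 for the other 18. In TPM the order differed: Mcm2, Mcm6, Mcm7 and Rrm1 also had their highest mean in Il10KO at week 6. Pcna was at 181.4 ± 16.5 TPM at week 10 and 101.3 ± 18.6 TPM at week 14 (SD). Cdk1 was at 113.8 ± 26.6 and 50.9 ± 10.5 TPM, while Cenpa stayed highest at week 14.

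**Figure D1:**
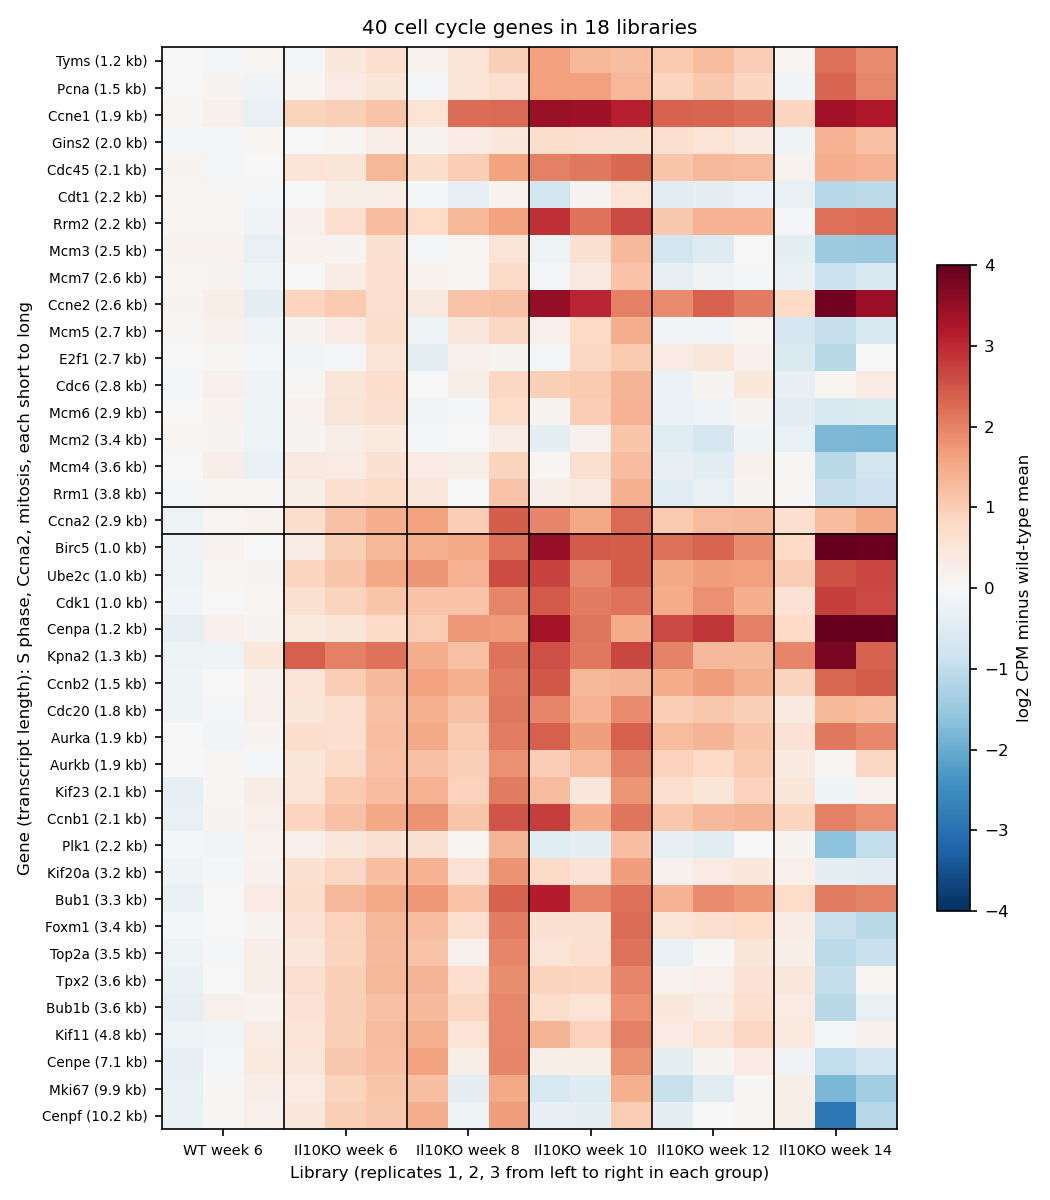
Log2 CPM of the 40 members (vertical axis, grouped by class) in the 18 libraries (horizontal axis), each value minus the wild-type mean of that gene, so that colour is a log2 difference. Replicate 3 of Il10KO at week 6 lies above all wild-type libraries for 40 of 40 members, and in replicates 2 and 3 of week 14 some members are far above and others far below it.

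At 6 weeks, the only age with both genotypes, all 40 members had a higher fitted level in Il10KO than in wild type, but none passed the test, as did none of the 16300 genes (0%). Mitosis genes had the larger differences: their median log2 fold change was 0.91 (range 0.43 to 2.17), against 0.39 (range 0.13 to 0.99) for S phase and -0.01 over all tested genes. In 30 of the 40 members all 3 Il10KO libraries lay above all 3 wild-type libraries, which was so for 12.3% of all genes. This held for 22 of 22 mitosis members, for Ccna2, and for 7 of 17 S phase members (Ccne1, Ccne2, Cdc45, Mcm2, Mcm4, Rrm1 and Rrm2). At an unadjusted p under 0.05 there were 16 members (14 of mitosis, Cdc45 and Ccna2) and 394 genes in all (2.42%). In bulk tissue, more dividing cells and more RNA per dividing cell cannot be told apart.

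The mitosis members with the smallest p were Kpna2, a nuclear import factor, and Ccnb1, which encodes cyclin B1, the partner of Cdk1. Kpna2 was at 0.659, 0.657 and 1.01 CPM in the wild type and at 4.01, 3.07 and 3.42 CPM in Il10KO, a log2 fold change of 2.17 ± 0.451 (edgeR adjusted p = 0.659). Ccnb1 was at 13.5, 18.3 and 19.2 CPM in the wild type and at 30.8, 38.2 and 49.2 CPM in Il10KO, a log2 fold change of 1.21 ± 0.386 (edgeR adjusted p = 1). Neither gene's groups overlapped. For Kpna2, 94.2% of the 31-base strings of its main transcript, the one with the most counts, also occur in other genes. Of all its strings, 92.7% occur in the gene Gm10184, which took 66680 counts over all libraries against 1582 for Kpna2. Gm10184 was at 40.9 ± 6.67 CPM in the wild type and 110 ± 15.9 CPM in Il10KO (SD, n = 3), a log2 fold change of 1.43 ± 0.312 (edgeR adjusted p = 0.718). How reads were divided between the pair is uncertain.

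Proliferation markers showed the same order of groups. Mki67 was at 55.3, 70.1 and 81.5 CPM in the wild type and 85.8, 125.9 and 147.2 CPM in Il10KO (log2 fold change 0.79 ± 0.604). Ccna2 was at 31.4, 38.0 and 40.3 CPM in the wild type and 59.2, 82.4 and 98.7 CPM in Il10KO (1.13 ± 0.328). Cdk1 was at 16.8, 18.2 and 19.1 CPM in the wild type and 27.4, 33.5 and 39.1 CPM in Il10KO (0.89 ± 0.399). In all 3 genes the lowest Il10KO library exceeded the highest wild-type library, for Mki67 by a small margin.

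S phase members differed less. Cdc45, a part of the replicative helicase, was at 5.48, 4.84 and 5.05 CPM in the wild type and 7.46, 7.14 and 12.8 CPM in Il10KO (log2 fold change 0.83 ± 0.330). Ccne1 was at 2.67, 2.90 and 2.02 CPM in the wild type and 4.62, 4.87 and 5.55 CPM in Il10KO (0.99 ± 0.497). These groups did not overlap. Mcm5, a subunit of the ring-shaped helicase, was at 41.7, 45.0 and 34.6 CPM in the wild type and 43.6, 50.7 and 64.9 CPM in Il10KO (0.39 ± 0.290). Pcna was at 82.4, 88.2 and 74.0 CPM in the wild type and 85.4, 101.3 and 113.8 CPM in Il10KO (0.30 ± 0.399). E2f1, the transcription factor, was at 6.50, 6.68 and 6.12 CPM in the wild type and 5.97, 6.26 and 9.21 CPM in Il10KO (0.15 ± 0.316). Mcm5, Pcna and E2f1 overlapped between the genotypes.

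The balance of the 2 classes was summarised per library as a score: the mean over a class of log2 CPM, after each gene was centred on its mean over the 18 libraries. The S phase score was -0.48 ± 0.124 (SD, n = 3) in the wild type and -0.04 ± 0.236 in Il10KO at week 6. The mitosis score was -0.90 ± 0.193 and 0.04 ± 0.317, and the 3 wild-type libraries had the lowest mitosis scores of all 18. S phase minus mitosis was 0.66, 0.51 and 0.09 in the wild type and 0.02, -0.11 and -0.15 in Il10KO. The groups did not overlap, and their means differed by -0.50, between -0.67 and -0.38 when each library was left out in turn. An exact permutation test of 3 against 3 cannot give a two-sided p below 0.1, so none is given.

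No marker of another cell type passed the test between the genotypes. Summed crypt stem cell markers were at 612.9 to 778.8 CPM in the wild type and 655.8 to 726.6 CPM in Il10KO, with a median log2 fold change of 0.07 over the 12 genes, and that of 10 epithelial markers was -0.11. Of the 7 smooth muscle markers all 7 had a negative log2 fold change (median -0.28), and their sum was 8674 to 9335 CPM in the wild type against 6754 to 7523 CPM in Il10KO. For 6 of the 7 the Il10KO libraries lay below all wild-type libraries, which was so for 13.1% of all genes. The part of the muscle share in the members' difference was not tested. Medians were 0.16 for T cell, 0.30 for neutrophil, 0.17 for fibroblast and 0.01 for endothelial markers. The Il10KO RIN values at week 6 were 8.8, 9 and 8.9 against 8.8, 9.2 and 8.8 in the wild type.

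**Figure D2:**
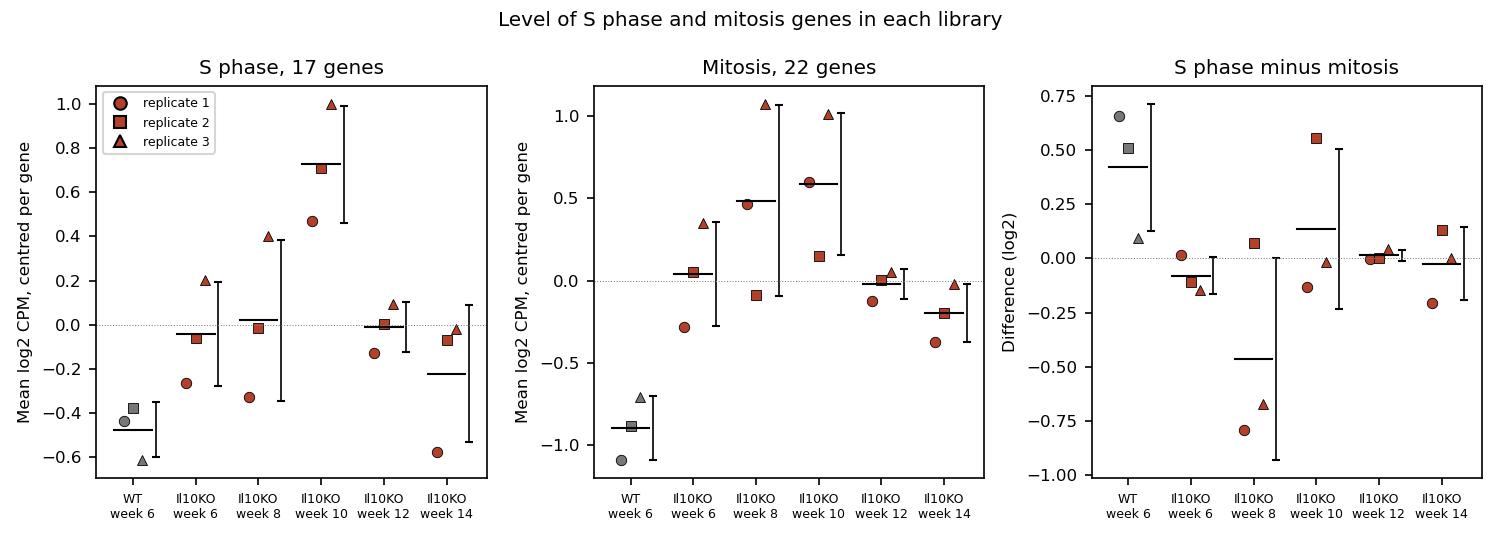
Score of each library (points; log2 units, vertical axis) by group (horizontal axis) for S phase, mitosis and their difference, with the group mean and SD as bars. The mitosis scores of the 3 wild-type libraries are the lowest of all 18, and the difference S phase minus mitosis does not overlap between the genotypes at week 6.

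Other genes of the division cycle, from lists of the pathway, were measured beside the members at week 6. Of 40 other mitosis genes all 40 had a positive log2 fold change (median 0.85), 37 had groups apart, and none passed the test. Of 37 other replication factors 36 were positive (median 0.32) and 13 had groups apart. Of 7 cyclin-dependent kinase inhibitors, the brakes of the cycle, 5 were negative. Cdkn1a, which encodes p21, was at 302.7, 236.6 and 256.1 CPM in the wild type and 191.5, 160.7 and 188.6 CPM in Il10KO, a log2 fold change of -0.56 ± 0.270 (edgeR adjusted p = 1), with the groups apart.

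From week 6 to week 8 no member passed the test, against 11 genes in all (0.0675%). At an unadjusted p under 0.05 there were 2 members, Cdc20 and Ube2c, and 7.03% of all genes. Log2 fold changes were positive in 32 of 40 members, with a median of 0.52 for mitosis, where 21 of 22 were positive, and of 0.03 for S phase. All comparisons with week 6 share the same 3 Il10KO libraries of week 6. Cdc20, the activator of the anaphase-promoting complex, was at 28.7, 32.6 and 46.1 CPM at week 6 and 54.7, 46.2 and 88.6 CPM at week 8 (0.82 ± 0.290, edgeR adjusted p = 0.490). Ube2c, which works with that complex, was at 37.4, 44.7 and 60.1 CPM and then 70.7, 53.9 and 127.0 CPM (0.82 ± 0.386, edgeR adjusted p = 0.706). Cdc20 was apart by a small margin and Ube2c overlapped. Groups were apart upwards in 5 members (Cdk1, Ccnb2, Cdc20, Birc5 and Cenpa), beside 11.1% of all genes.

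Week 8 mice differed widely among themselves. Mki67 was at 156.1, 52.5 and 196.8 CPM at week 8, so that replicate 2 lay below all 3 wild-type libraries and replicate 3 was the highest of all 18. Top2a, which untangles DNA before mitosis, was at 141.4, 72.7 and 245.1 CPM. Replicate 2 was the lowest of its group for 20 of 22 mitosis members, and replicate 3 the highest for 38 of the 40 members. Replicate 2 also had the lowest RIN outside week 14, 8.4. Among S phase members the smallest p belonged to Ccne1, at 3.65, 11.8 and 11.9 CPM (0.87 ± 0.490 against week 6), and Rrm2, a subunit of ribonucleotide reductase, at 24.0, 35.9 and 43.7 CPM (0.51 ± 0.440). Both overlapped the week 6 libraries.

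Markers of other cell types moved beside the members at week 8, and none of them passed the test. All 7 fibroblast markers (median log2 fold change -1.01), all 7 endothelial (-0.98) and all 7 smooth muscle markers (-0.65) had lower fitted levels than at week 6. The groups were apart downwards in 3, 5 and 6 of them, beside 12.8% of all genes. Smooth muscle sums were 6754 to 7523 CPM at week 6 and 3498 to 5857 CPM at week 8. All 9 T cell markers had higher fitted levels (median 1.02), with sums of 26.7 to 43.2 CPM and then 41.2 to 115.7 CPM, which overlapped. The part of these cells in the members' levels was not tested.

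At week 10, 12 of the 40 members were higher than at week 6 and none was lower, where 14.6% of all genes rose and 9.48% fell. The 12 comprised 5 of S phase (Ccne1, Ccne2, Rrm2, Cdc45 and Pcna) and 7 of mitosis (Cenpa, Birc5, Cdk1, Bub1, Aurka, Ube2c and Cdc20). In each of the 12 the week 10 libraries lay above all 3 week 6 libraries, as they did in 17 of the 40 members and 27.5% of all genes. No member was apart downwards, beside 30.3% of all genes. At an unadjusted p under 0.05 there were 18 members and 44.1% of all genes. The other 28 did not pass the test, among them all 6 Mcm genes, Mki67 and Top2a. The median over the members was 0.53, against 0.015 over all genes.

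Cyclin E and the nucleotide enzyme led among S phase members. Ccne1 was at 4.62, 4.87 and 5.55 CPM at week 6 and 27.2, 26.1 and 21.6 CPM at week 10, a log2 fold change of 2.32 ± 0.507 (edgeR adjusted p = 0.0103). Ccne2 was at 7.37, 8.31 and 6.30 CPM and then 46.5, 33.3 and 16.4 CPM (2.13 ± 0.548, edgeR adjusted p = 0.0180). Rrm2 was at 16.4, 22.7 and 33.8 CPM and then 108.9, 65.0 and 88.4 CPM (1.85 ± 0.452, edgeR adjusted p = 0.0149). All 3 genes were apart. Ccne1 was nearly even over the mice of week 10, while Ccne2 in replicate 3 was far below its level in replicate 1. Ccne2 shares 19.2% of its 31-base strings with its neighbour Ints8. Pcna was at 255.7, 251.6 and 203.7 CPM at week 10 (1.24 ± 0.405, edgeR adjusted p = 0.0393), all above the 85.4 to 113.8 CPM of week 6.

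Among mitosis members the largest rises were in Cenpa, the histone H3 variant of the centromere, and Birc5, which encodes survivin, a subunit of the chromosomal passenger complex. Cenpa was at 11.7, 12.6 and 15.2 CPM at week 6 and 89.6, 39.0 and 25.1 CPM at week 10 (1.96 ± 0.641, edgeR adjusted p = 0.0396). Birc5 was at 13.0, 20.7 and 27.0 CPM and then 119.6, 58.3 and 57.4 CPM (1.95 ± 0.567, edgeR adjusted p = 0.0278). Cdk1 was at 27.4, 33.5 and 39.1 CPM and then 97.5, 75.5 and 81.1 CPM (1.35 ± 0.402, edgeR adjusted p = 0.0301). Replicate 1 of week 10 was the highest in all 3 genes, and the groups were apart in each.

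Mki67 did not follow them. It was at 44.0, 47.6 and 181.8 CPM at week 10, below all 3 week 6 libraries in replicates 1 and 2 and above them in replicate 3 (-0.39 ± 0.601, edgeR adjusted p = 0.617). Ccna2 was at 142.1, 106.6 and 175.7 CPM, above week 6 in each mouse, but did not pass the test (0.82 ± 0.326, edgeR adjusted p = 0.0715). Mcm5 was at 46.3, 70.1 and 108.9 CPM (0.50 ± 0.290) and E2f1 at 6.23, 11.5 and 13.4 CPM (0.54 ± 0.317). Both overlapped week 6.

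The number of week 10 calls changed with the libraries kept. It was 1 without replicate 1 of week 6, 1 without replicate 2, 5 without replicate 3, and 2 without replicate 1 of week 10. Counts over all genes in these fits are not given here, so whether the drop was particular to the members cannot be told. With cage as a factor none of the 40 and 2 of 16182 genes passed. On the TPM scale, where the median of all genes was -0.34, 6 members passed and all were higher, beside 3250 of 16300 genes that passed.

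The make-up of the tissue also differed at week 10. Of 8 neutrophil markers 6 rose, their sum going from 4.74 to 6.52 CPM at week 6 to 4972, 202.6 and 32.1 CPM in replicates 1, 2 and 3. Of 7 germinal centre B cell markers 3 rose, Fas and Mybl1 among them, with sums of 35.4 to 36.9 CPM at week 6 and 77.3 to 170.9 CPM at week 10, and of 9 T cell markers 4 rose (26.7 to 43.2 CPM, then 41.9 to 112.7 CPM). Of 12 crypt stem cell markers Cdca7 and Olfm4 rose, while the list's sum was 655.8 to 726.6 CPM and then 345.1 to 621.7 CPM. Of 7 fibroblast markers 5 fell, and of 7 endothelial markers 4. Among 10 markers of mature colonocytes 2 rose and 3 fell, among 10 of the epithelium Cldn7 rose, and among 5 of adipose tissue Plin1 fell. None of 8 B cell, 8 macrophage or 7 smooth muscle markers passed the test. No marker of these lists was at 0 counts in all 3 libraries of week 6 or week 10. Their part in the members' rise was not tested.

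Genes around the members rose too. Of 37 other replication factors 19 rose and none fell, led by Rpa3 (2.61 ± 0.789), which binds single-stranded DNA, Orc6 (2.17 ± 0.567), of the origin recognition complex, and Gins1 (2.14 ± 0.576), with a median of 0.996 for the list. Of 40 other mitosis genes 10 rose and none fell, led by Cks2 (1.87 ± 0.620), Spc25 (1.78 ± 0.578) and the checkpoint gene Mad2l1 (1.63 ± 0.506). Of 18 Rb, E2F and DREAM factors 9 rose and 2 fell, among the risers Mybl1 (2.11 ± 0.636), Mybl2 (1.44 ± 0.375) and E2f2 (1.21 ± 0.343). Mybl1 is also in the germinal centre list. Of 8 G1 cyclins and kinases 4 rose and Cdk6 fell (-1.28 ± 0.393).

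The brakes of the cycle went both ways at week 10. Cdkn1a rose, from 191.5, 160.7 and 188.6 CPM at week 6 to 348.5, 363.6 and 347.2 CPM at week 10 (0.97 ± 0.271, edgeR adjusted p = 0.0243), and Cdkn2b, which encodes p15, fell from 43.9, 34.1 and 40.8 CPM to 23.5, 29.3 and 22.7 CPM (-0.66 ± 0.199, edgeR adjusted p = 0.0319). Both were apart, and the other 5 inhibitors did not pass the test. Cdkn1a is a target of p53. Of 14 p53 targets 4 rose, Mdm2 most (1.49 ± 0.362), and Sesn2 fell (-1.12 ± 0.328).

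**Figure D3:**
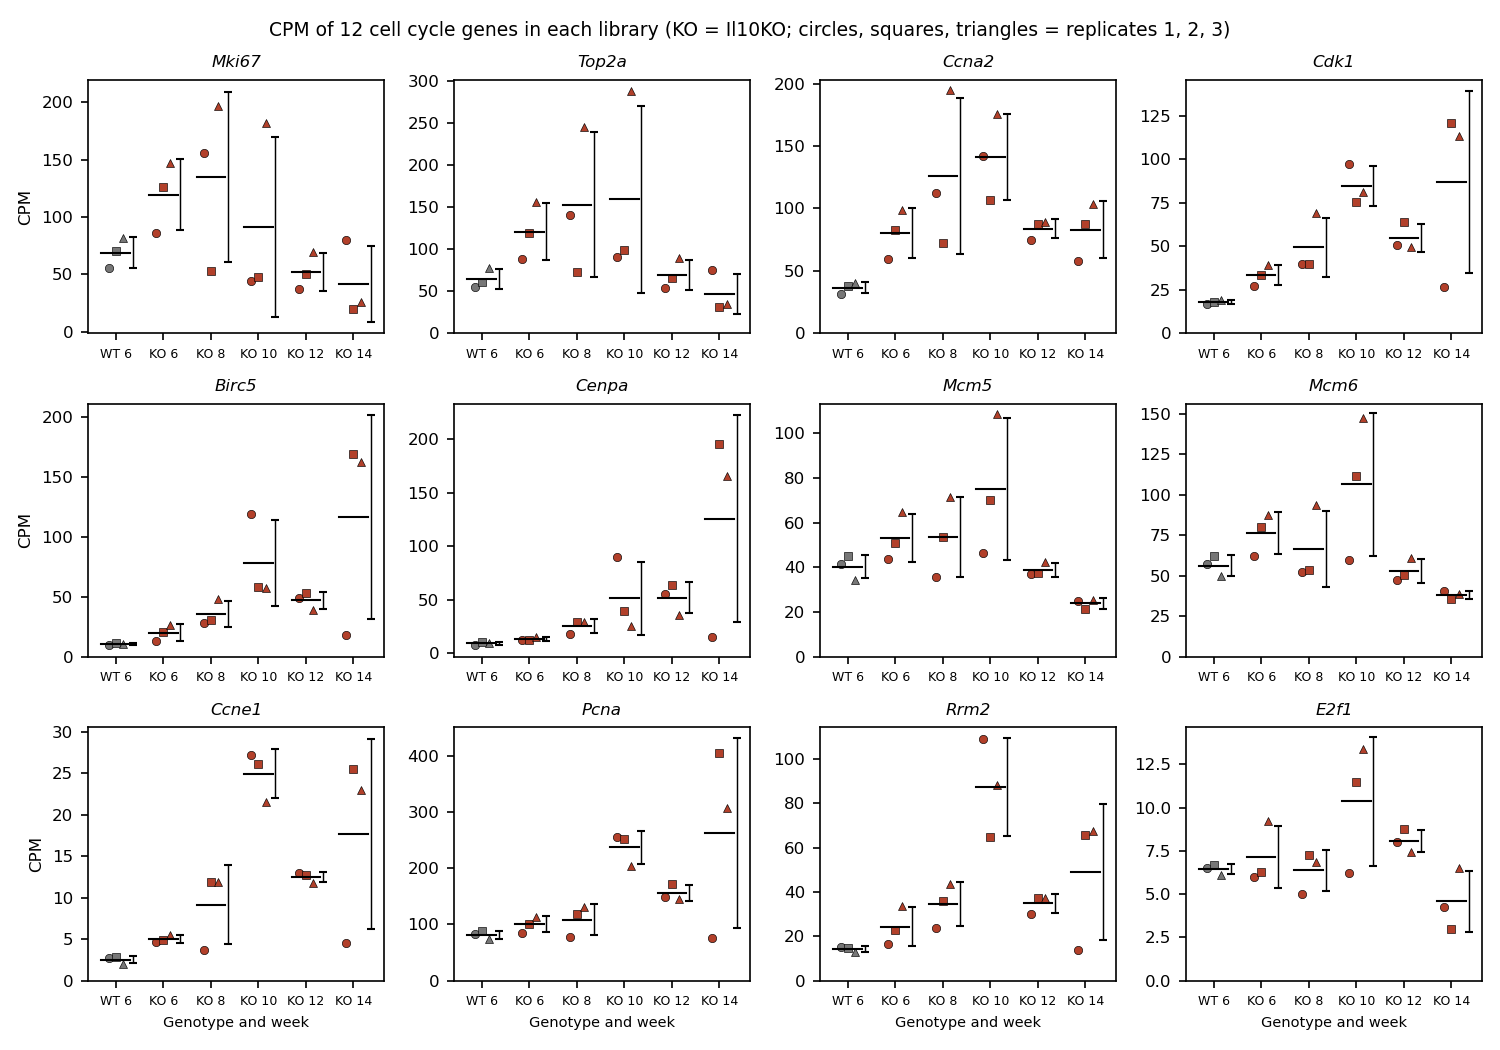
CPM of 12 members (vertical axis of each panel) in the 18 libraries by group (horizontal axis), points for libraries and bars for the mean and SD. Ccne1, Rrm2, Cdk1 and Birc5 at week 10 lie above all week 6 libraries, Mki67 and Top2a spread widely at weeks 8 and 10, and replicate 1 of week 14 lies far below the other two mice for Pcna, Cdk1, Birc5 and Cenpa.

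At week 12 no member differed from week 6 past the threshold, while 301 genes did (1.85%, with 1.36% higher and 0.491% lower). Log2 fold changes were positive in 19 members and negative in 21 (median -0.29). Cenpa had the smallest p, at 55.4, 64.1 and 35.9 CPM (1.98 ± 0.641, edgeR adjusted p = 0.0921). Ccne1 was at 13.0, 12.7 and 11.8 CPM (1.32 ± 0.493, edgeR adjusted p = 0.111), and Mki67 at 36.8, 50.3 and 69.7 CPM (-1.20 ± 0.609, edgeR adjusted p = 0.178). Groups were apart upwards in 10 members and downwards in 15, beside 32.8% and 32.9% of all genes. In this fit each gene's spread was shared by all 6 groups. In a fit of only weeks 6 and 12, 25 members passed, beside 9186 of 15564 genes. With 1 weight per group 25 members passed too, beside 10096 of 16300 genes. In each of these fits 10 members were higher and 15 lower. Without the 3 week 14 libraries, an alternative chosen after seeing the data, 8 members passed, beside 6688 of 16176 genes. The counts thus rose over all genes as well as in the members, and the cause was not tested.

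The tissue markers at week 12 also differed from week 6. All 7 fibroblast markers lay apart below week 6 (median -1.90) and Col1a2 and Col3a1 fell, with sums of 2089 to 3155 CPM at week 6 and 632.7 to 701.5 CPM at week 12. All 7 endothelial markers lay apart below it too (median -1.79), from sums of 152.8 to 177.7 CPM to 48.6 to 59.9 CPM, though none passed the test. Of 9 T cell markers Cd8a rose, 7 were apart upwards, and their sum reached 80.8 to 113.4 CPM. The part of these cells in the members' levels was not tested.

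Set directly against week 10, week 12 was lower in 39 of 40 members, with a median of -0.79 (-0.01 over all genes). This comparison uses no week 6 library, but the same 3 week 10 libraries as week 10 against week 6. Of these, replicate 3 was the highest for 26 members and replicate 1 for 14. Replicate 3 was the highest of all 18 libraries for 17 members. All 17 S phase members were lower (median -0.91). None passed the test, where 73 genes did (0.448%, with 0.209% higher and 0.239% lower). At an unadjusted p under 0.05 there were 19 members and 14.6% of all genes. With DESeq2, 3 members passed, beside 820 of 16190 genes. Groups were apart downwards in 21 members and 12% of all genes.

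The smallest p among S phase members belonged to Cdc6 and Mcm6. Cdc6, the helicase loader, was at 10.3, 10.7 and 13.4 CPM at week 10 and 4.47, 5.71 and 7.04 CPM at week 12 (-0.998 ± 0.283, edgeR adjusted p = 0.120). Mcm6 was at 59.9, 111.8 and 147.5 CPM and then 47.6, 50.4 and 61.1 CPM (-1.01 ± 0.295, edgeR adjusted p = 0.132). Cdc6 was apart and Mcm6 overlapped. Among mitosis members, Kif11, a motor of the spindle, was at 26.8, 19.5 and 41.5 CPM and then 13.1, 15.2 and 18.4 CPM (-0.91 ± 0.335, edgeR adjusted p = 0.219), and Aurka, a spindle kinase, at 50.3, 30.8 and 50.5 CPM and then 23.2, 24.9 and 20.9 CPM (-0.93 ± 0.342, edgeR adjusted p = 0.219). Both were apart.

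All 37 other replication factors were lower at week 12 than at week 10 (median -0.55), as were 37 of 40 other mitosis genes (-0.58), though none passed. Of the 7 inhibitors Cdkn2b alone passed: it rose from 23.5, 29.3 and 22.7 CPM to 67.3, 57.3 and 49.5 CPM (1.21 ± 0.201, edgeR adjusted p = 0.0222), with the groups apart. Neutrophil markers summed to 13.1 to 44.0 CPM at week 12 against 32.1 to 4972 CPM at week 10, while T cell sums were 80.8 to 113.4 CPM against 41.9 to 112.7 CPM. Crypt stem cell sums were 330.5 to 509.7 CPM against 345.1 to 621.7 CPM. The part of these cells in the members' difference was not tested.

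At week 14, 23 members differed from week 6, 10 higher and 13 lower, where 33.1% of all genes changed (24.5% higher, 8.56% lower). Among fits with 1 library left out, the number called was smallest without replicate 2 or 3 of week 14, of RIN 6.5 and 5.8. Without both, week 14 keeps 1 library, so that fit cannot show what the calls rest on. With RIN as a covariate no member and none of 16300 genes passed. However, RIN under 8.4 occurred only in these 2 libraries, so that fit cannot separate RIN from week 14. Without replicate 2 alone there were 3 members, without replicate 3 alone 4, and without replicate 1 of RIN 9, 32. Leaving out replicate 1, 2 or 3 of week 6 gave 11, 6 and 7. For the fits with 1 library left out, counts over all genes are not given here. On the TPM scale, with a pseudocount of 1, 1 member was higher and 25 were lower, with the median of all genes at -0.74. On that scale 9778 of 16300 genes passed. At an unadjusted p under 0.05 there were 31 members and 52.3% of all genes.

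The higher members were 5 of S phase (Ccne2, Ccne1, Pcna, Tyms and Gins2) and 5 of mitosis (Cenpa, Birc5, Cdk1, Ube2c and Ccnb2). Cenpa was at 15.4, 196.0 and 166.0 CPM (3.26 ± 0.673, edgeR adjusted p = 0.00617). Birc5 was at 18.6, 169.1 and 162.6 CPM (2.53 ± 0.579, edgeR adjusted p = 0.00676). Pcna was at 75.7, 405.5 and 307.6 CPM (1.39 ± 0.406, edgeR adjusted p = 0.0197). In each, replicate 1 was near the week 6 levels and the other mice were far above them. Of the 10 risers 9 overlapped week 6, and Cenpa was apart by a small margin. Ccne2 was at 7.06, 58.5 and 43.3 CPM (2.31 ± 0.552, edgeR adjusted p = 0.00778), and Ccne1 at 4.56, 25.5 and 23.0 CPM (1.82 ± 0.500, edgeR adjusted p = 0.0148). Cdk1, at 26.7, 121.2 and 113.4 CPM (1.39 ± 0.402), had the same order of mice.

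The lower members were 8 of S phase (Mcm2 to Mcm7, Cdt1 and Rrm1) and 5 of mitosis (Cenpe, Foxm1, Top2a, Bub1b and Kif20a), and all 13 were apart from week 6. Groups were apart downwards in 19 members and 21.5% of all genes, and upwards in 1 member and 19.2%. Cenpe was at 9.72, 5.37 and 6.34 CPM, against 14.7, 22.5 and 24.4 CPM at week 6 (-1.52 ± 0.470, edgeR adjusted p = 0.0255). Mcm5 was at 25.2, 21.2 and 25.6 CPM (-1.15 ± 0.294, edgeR adjusted p = 0.0106). Mcm2 was at 26.3, 9.30 and 9.19 CPM, against 34.9, 38.8 and 42.3 CPM at week 6 (-1.37 ± 0.395, edgeR adjusted p = 0.0189). For these genes replicate 1 was low as well, though less than the others for Mcm2 and Cenpe. Mki67 was at 79.7, 19.4 and 26.1 CPM (-1.52 ± 0.614, edgeR adjusted p = 0.0636), Ccna2 at 58.1, 87.4 and 103.1 CPM (0.05 ± 0.324), and E2f1 at 4.27, 3.00 and 6.49 CPM (-0.64 ± 0.320).

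Neutrophil markers separated the same mice: their sum was 4.77, 15170 and 9937 CPM in replicates 1, 2 and 3, and 7 of 8 rose. Germinal centre sums were 37.1, 197.5 and 147.1 CPM, with 3 of 7 markers higher, and 6 of 9 T cell markers rose. No marker of these lists was at 0 counts in all 3 libraries of week 14. Other cycle genes changed in both directions. Of 37 other replication factors 19 rose, Rpa3 (4.57 ± 0.861) and Gmnn (2.98 ± 0.608) most, and 7 fell, Pola1 (-1.77 ± 0.459) most. Of 40 other mitosis genes 9 rose, led by Cks2 (2.85 ± 0.643), and 6 fell. Of 8 G1 genes 3 rose and 1 fell, of 18 Rb, E2F and DREAM factors 4 rose and 3 fell, and of 14 p53 targets 5 rose and 2 fell. Among the inhibitors Cdkn2d rose (1.48 ± 0.461, edgeR adjusted p = 0.0263). Of 10 checkpoint genes 4 fell, led by Atm (-1.55 ± 0.512). The parts of RNA quality and cell make-up were not tested.

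Transcript length ran with these differences. The members' mean transcript length, weighted by TPM, was between 962.7 bases (Birc5) and 10235.6 bases (Cenpf), with a median of 2560.2 for S phase and 2156.25 for mitosis. The weights were the mean TPM of these same 18 libraries, so the lengths are not independent of the levels they are set against. Spearman's rank correlation of the log2 fold change with length over the 40 members was -0.02 for genotype at week 6, then -0.34, -0.62, -0.73 and -0.80 for weeks 8, 10, 12 and 14 against week 6. Over 16064 genes it was 0.10, -0.30, -0.41, -0.52 and -0.59. These are descriptions across genes of the same libraries, and the last 4 share the week 6 mice. At week 14 the 10 shortest members had a median of 1.16 and the 10 longest of -1.26. At week 10 these were 1.21 and 0.27, and for genotype at week 6 they were 0.88 and 0.90. For week 12 against week 10, the rank correlation was -0.33 in the members and -0.06 over all genes.

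At week 14 the shorter members had the higher medians in both classes. Of the 8 S phase members shorter than the members' median of 2520 bases, 4 rose and 2 fell (median 0.91). Of the 9 longer ones 1 rose and 6 fell (median -0.94). Among the shorter risers, Gins2 and Tyms had weighted lengths of 2023.2 and 1182.8 bases. Their main transcripts were longer than 2520 bases, at 3900 and 3163. Of the 12 shorter mitosis members 5 rose and none fell (0.74), and of the 10 longer ones none rose and 5 fell (-1.26). At week 10 the shorter and longer members had medians of 1.13 and 0.48 in S phase and 0.97 and 0.28 in mitosis. At week 6, between genotypes, they were 0.34 and 0.42 in S phase and 0.90 and 0.91 in mitosis.

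Per library, the mean of the 10 shortest minus that of the 10 longest members (as scores) was -0.98 to -0.85 in the wild type and -0.94 to -0.77 in Il10KO at week 6. The week 8 libraries gave -0.94, -0.05 and -0.78. The week 10 libraries gave 1.16, 0.47 and -0.71, those of week 12 gave 0.73, 0.64 and 0.03, and those of week 14 gave -0.47, 3.00 and 2.26. For each library, log2 CPM minus the wild-type mean was also rank correlated with length over all genes. In week 8 this gave 0.05, -0.40 and -0.08 in replicates 1, 2 and 3. Its part in the low Mki67 of replicate 2 was not tested. The week 12 libraries had RIN values of 8.9, 8.6 and 8.8. With a length trend removed from each library, an alternative chosen after seeing the data, 14 members rose at week 10, of which 10 were among the 12. Over all genes 5036 of 16064 passed, in either direction. Cdk1 (0.66, edgeR adjusted p = 0.0609) and Ube2c (0.50) were lost, and Cdc6, Mcm4, Kif11 and Ccna2 (0.97) were added. At week 14, 8 of the 23 remained, beside 4081 of 16064 genes that passed. Ccne1 (1.49), Ccne2 (2.56) and Cenpa (1.92) were higher, and Cdt1 (-1.01), Mcm2 (-0.94), Mcm3 (-1.22), Mcm5 (-0.90) and Mcm7 (-0.77) lower. Cenpe was at -0.04, Cdk1 at -0.18 and Birc5 at 0.77, without passing. At week 6 the genotype medians stayed at 0.39 for S phase and 0.91 for mitosis. The part of length in each call was otherwise not tested.

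**Figure D4:**
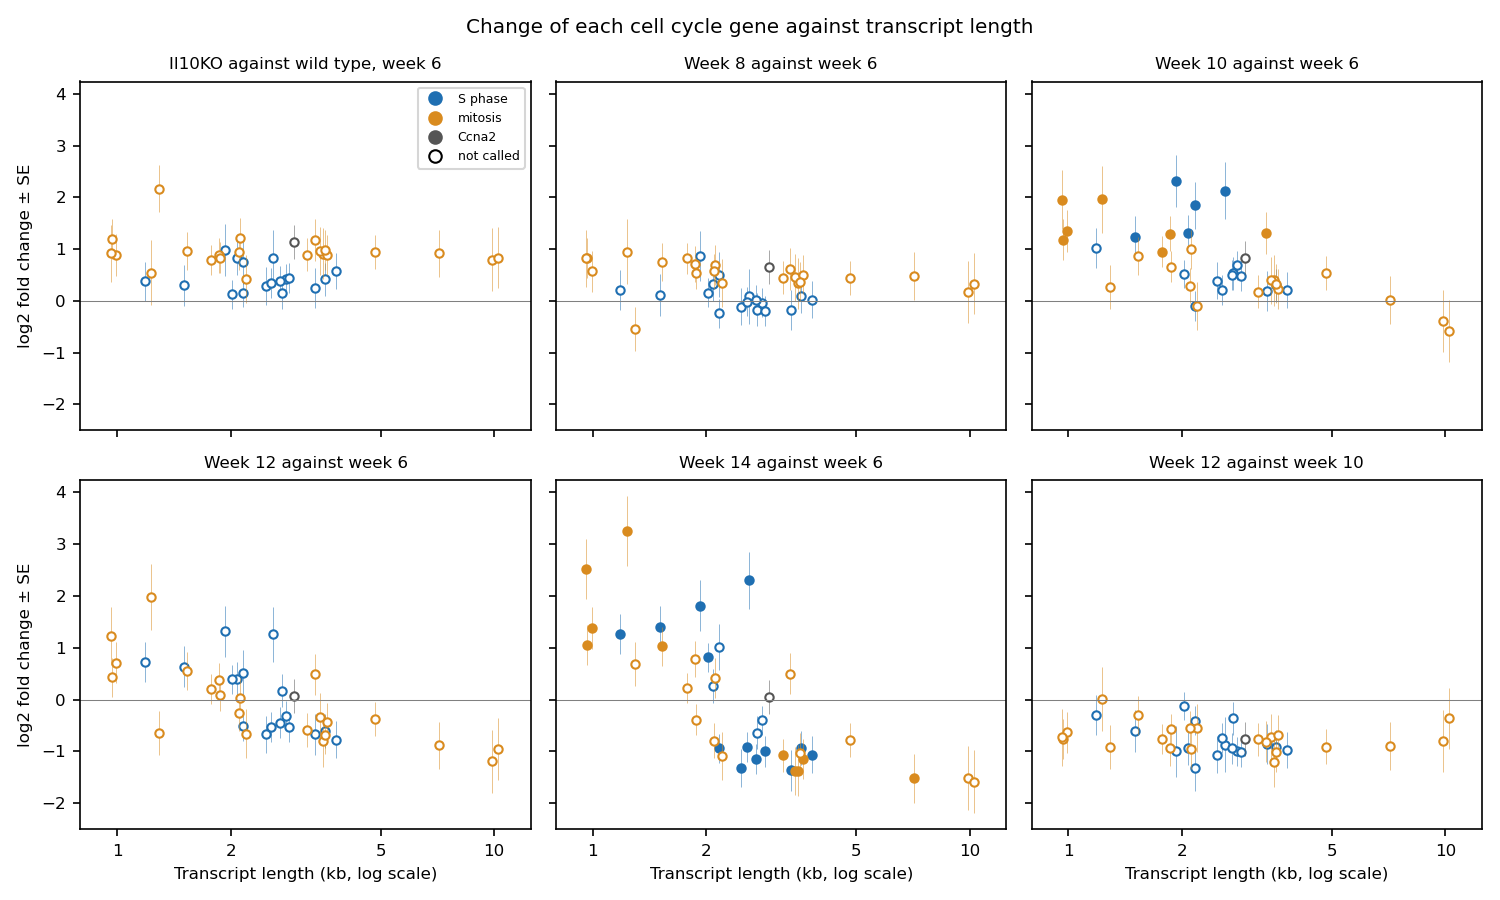
Log2 fold change ± SE of the 40 members (vertical axis) against transcript length in kilobases (horizontal axis) in 6 comparisons, by class, with filled points for members that passed the test. The rank correlation is -0.02 for genotype at week 6 and -0.80 for week 14 against week 6, where most risers are shorter than most fallers, though the 2 overlap in length.

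Over the 5 Il10KO ages jointly, 23 members differed (13 of S phase and 10 of mitosis), where 27.4% of all genes did. At an unadjusted p under 0.05 there were 32 members and 46.7% of all genes. Mcm5 had the smallest adjusted p among the members (0.0159, edgeR). The count was 2 without replicate 2 of week 14, 3 without replicate 3 and 38 without replicate 1. It was 4, 4 and 6 without replicates 1, 2 and 3 of week 6, 8 without replicate 1 or 2 of week 12, 13 and 15 without replicates 1 and 3 of week 8, and 0 with cage as a factor. Where a library was left out, counts over all genes are not given here. The S phase and mitosis scores correlated over the 18 libraries (Pearson's r = 0.78), which share normalisation and the groups' differences. S phase minus mitosis was -0.79, 0.07 and -0.67 in the mice of week 8 and -0.13, 0.56 and -0.015 in those of week 10. It lay between -0.003 and 0.04 in week 12, and was -0.20, 0.13 and 0.002 in week 14. The week 8 libraries lay on both sides of the Il10KO range of week 6, and each later age overlapped it.

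Within ages, no member and no gene of 16182 (0%) had a level related to faecal lipocalin past the threshold, and at an unadjusted p under 0.05 there were 0 members and 117 genes (0.723%). DESeq2 gave 0 as well. Within ages the range of lipocalin was limited, at 102 to 136 ng/g in week 8 and 340 to 554 ng/g in week 10. It was 2.27 to 4.72 ng/g in week 6 and 444 to 2574 ng/g in week 12. In week 14 it was 2044, 3758 and 4289 ng/g at RIN 9, 6.5 and 5.8. Lipocalin and RIN cannot be told apart at that age. Slopes per log10 of lipocalin were positive for 16 members and negative for 24 (median -0.26). Mki67 had a slope of -1.92 ± 1.21 (edgeR adjusted p = 0.889). The rank correlation with length was -0.78 in the members and -0.54 over 15949 genes.

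Set beside the promoter letters, the genotype difference at week 6 was larger where CHR letters were present. The median log2 fold change was 0.88 in the 16 members with TTTGAA and 0.44 in the 16 without, and 0.44 in the 11 members with an E2F-type string and 0.89 in the 21 without. Of the 16 with TTTGAA, 14 are mitosis members, and members with and without it were not compared within a class. At week 10 the medians were 0.47 with TTTGAA and 0.61 without. Birc5, which has none of the letters, was among the members that rose at week 10, as were Cdk1, Ube2c and Cenpa, which have TTTGAA.

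Shared sequence, measured on each member's main transcript, limits some members. Besides Kpna2 and Ccne2, Gins2 shares 70.5% of its 31-base strings with Gse1, Kif20a 32.6% with Cdc23 and Ccna2 16.5% with Exosc9, and these partners took 25855, 14772 and 14676 counts. Mcm7 (47.6%), Ccnb1 (46.9%), Pcna (38.0%), Cdc20 (28.7%), Tyms (20.2%) and Ube2c (20.1%) also share strings, but the gene with which each shares most took between 0 and 26 counts. Gins2, which was higher at week 14, is therefore uncertain, as is Kpna2. Leaving both out of the counts gave 22 members at week 14.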

How the data were processed

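Poly(A) RNA of 18 distal colon biopsies was sequenced. The authors quantified transcripts with kallisto on mm10 after FastQC, per the submitters' processing notes, and deposited estimated counts and TPM per transcript and per gene symbol. Versions, annotation and strand setting are not given in the sources used here. Estimated counts were tested with edgeR 4.0.16 (limma 3.58.1, R 4.3.3): TMM, filterByExpr, 6 group means over 18 libraries, quasi-likelihood F-test, two-sided, Benjamini-Hochberg over all tested genes. The SE is the log2 fold change divided by the square root of F. The lipocalin slope was fitted in the 15 Il10KO libraries with age as a factor. Alternatives used DESeq2 1.42.0, limma on log2(TPM + 1) and log2(TPM + 0.1), other weights, filters and covariates, and libraries left out. TPM loses depth. Transcript lengths came from the authors' tables for 98.55% of genes, with 97.75% of transcripts matched to GENCODE M21 names. Promoters came from RefSeq. Fits were tested on simulated data.

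The 40 members and all lists were chosen with earlier results of these data known. Values in every library are given, per comparison, for the called members with the largest log2 fold change (up to 6, and up to 3 a class) or, with none called, the 2 of each class with the smallest p, and for Mki67, Ccna2, Cdk1, Mcm5, Pcna and E2f1. Of other lists up to 3 called genes are named. Some genes of these lists are not reported here. Top2a and Mcm2 were named after their values were seen. Same-numbered replicates did not deviate together (r from -0.246 to 0.237), so the numbers were not taken as pairs.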

Additional observations from a re-analysis of the deposited data

How the results depend on the processing

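The number of members called changed with the analysis as follows, and the cause was not tested. The number of all tested genes called in the same fit is given in brackets, except where libraries were left out in turn. For genotype at week 6 it was 0 (0 genes), but 1 with DESeq2 (25), 17 with 1 weight per group (354) and 5 in a fit of the compared groups only (65). For week 10 against week 6 it was 12 (3917 genes). It was 6 on log2(TPM + 1) (3250), 5 on log2(TPM + 0.1) (2021) and 0 with cage as a factor (2), and 1 to 11 with 1 library left out. For week 12 against week 6 it was 0 (301 genes). It was 1 with DESeq2 (2507), 25 with group weights (10096), 5 with RIN as a covariate (5751) and 25 in the compared groups only (9186). It was 8 without the 3 week 14 libraries (6688), a fit chosen after seeing the data. For week 14 against week 6 it was 23 (5388 genes). It was 1 with group weights (1377), and 0 with RIN, with cage or in the compared groups only (0 in each). It was 8 with the length offset (4081), chosen after seeing the data, and 3 to 32 with 1 library left out. Without the low RIN libraries week 14 keeps 1 library, so no count is given. For week 12 against week 10 it was 0 (73 genes), but 3 with DESeq2 (820), 6 with RIN (1030) and 4 without the 3 week 14 libraries (1096). Over the ages it was 23 (4471 genes), but 0 with cage (0), and 2 to 38 with 1 library left out. For the other tests it was 0 with each library left out in turn.

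Some log2 fold changes turned. With cage as a factor, week 8 against week 6 gave -0.17 for Ccne1 and -0.012 for Rrm2. Without the low RIN libraries, which leaves 1 mouse at week 14, week 14 against week 6 gave -0.12 for Birc5, -0.057 for Ccne2, -0.14 for Ccne1 and -0.41 for Pcna. Pcna also gave -0.18 on log2(TPM + 1), -0.183 on log2(TPM + 0.1) and -0.056 with RIN. On log2(TPM + 1) the median of all genes was -0.34, -0.365 and -0.74 at weeks 10, 12 and 14 against week 6, and members above that median numbered 30, 18 and 14. With the replicate block the counts were 13 at week 10 (3046 genes in all), 26 at week 14 (5630), 20 over the ages (3407) and 0 elsewhere. Of 598 further results under alternatives, 473 were counted as unchanged. For single genes this means the same direction and side of the threshold. Differences in S phase minus mitosis have no threshold, and some counted as unchanged turned in sign. For week 12 against week 10 that difference lay between -0.258 and 0.088 with 1 library left out. With 3 mice a group and a coefficient of variation of 0.394, small differences were not detectable.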
